A study of Oryctolagus cuniculus with 12 samples.

Results

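The matrix metalloproteinases (MMPs) and the tissue inhibitors of metalloproteinases (TIMPs) were followed in bulk RNA-seq of rabbit ear. The members were taken from a list of 10 symbols, MMP1, MMP2, MMP3, MMP9, MMP11, MMP13, MMP14, TIMP1, TIMP2 and TIMP3, and a gene entered when the deposited table carried its symbol. By this rule 8 of 29587 genes were members, of which 6 were MMPs and 2 were TIMPs. All 8 had a mean FPKM (fragments per kilobase of gene, scaled to the size of the library, so a level corrected for gene length) of at least 1 over the samples, as did 13287 genes in all, and these were the genes tested. No row had the symbol MMP14 or TIMP2. A row with no symbol whose description names MMP14 is given beside the members and is left out of their counts. TIMP2 was not analysed here.

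MMPs are zinc-dependent proteases that cut collagens and other proteins of the extracellular matrix, and they are made as inactive proenzymes that must be opened by other proteases. TIMPs bind the active site of MMPs and block it, and MMP14, which sits in the cell membrane, activates MMP2 with the help of a TIMP. In skin, these enzymes clear and rebuild collagen after a wound, and the main sources are fibroblasts, keratinocytes and infiltrating leukocytes.

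The samples came from female WT rabbits of 10 to 12 weeks, in 4 groups of 3. NS was normal ear skin without treatment, and HS was hypertrophic scar without treatment, raised from round wounds of 7 mm. The drug-loaded MNs group had scars that received 1 microneedle (MN) patch per lesion, and the 5-Fu injection group had scars injected with 0.1 mL of 5-fluorouracil (a dose of 120 μg for each lesion). Both treatments were given on days 22, 29 and 36. All were harvested on day 43. The tips of the patch were a crosslinked gelatin gel, which MMPs can digest, with a peptide prodrug of 5-fluorouracil acetic acid bound in it, and the study built it to respond to MMP2, MMP9 and reactive oxygen species. A patch without drug was not analysed here, so an effect of the drug and an effect of the patch cannot be told apart. Full thickness ear holds epidermis, dermis and cartilage from both faces, and in bulk tissue fewer cells of a type and less RNA per cell cannot be told apart.

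Each sample held 10521472 to 14043667 reads on genes, and the members carried from 12 reads (MMP3) to 50996 reads (MMP2) in a sample. Markers of skin were present: the 6 fibroblast markers with a row summed to 827 to 6012 FPKM and the 5 keratinocyte markers to 1501 to 10212 FPKM. Cartilage was in every sample, with a sum of 417 to 5495 FPKM over 9 chondrocyte markers, and its level varied as much inside a group as between groups. The sum of 6 neutrophil markers ran from 60.5 to 8731 FPKM, mostly S100A8 and S100A9, which stressed keratinocytes also make, while MPO and CAMP, made by neutrophil precursors, were at or below 2.05 FPKM in all samples. CSF3R, a receptor of mature granulocytes on the same list, was at 6.84, 14.003 and 0.622 FPKM in NS, 0.587 to 1.92 in HS, 0.655 to 1.19 with drug-loaded MNs and 2.29, 32.2 and 7.04 with 5-Fu injection.

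In HS, MMP2 and MMP13 were higher than in NS, 9.16-fold and 32.7-fold by their mean FPKM, and MMP14 was 6.40-fold higher. After 5-Fu injection, MMP2 and MMP14 were lower than in HS, 2.80-fold and 2.86-fold. Each of these falls was called in 9 of 17 settings, and the rise of MMP13 in HS in 15 of 17. In the drug-loaded MNs group the means of MMP2, MMP13 and MMP14 lay between those of HS and NS, and no member passed the test against HS. In the main fit, MMP1, MMP3, MMP9, MMP11, TIMP1 and TIMP3 passed the test in none of the comparisons, and all 4 groups overlapped for MMP1, MMP9 and TIMP1.

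**Figure D1:**
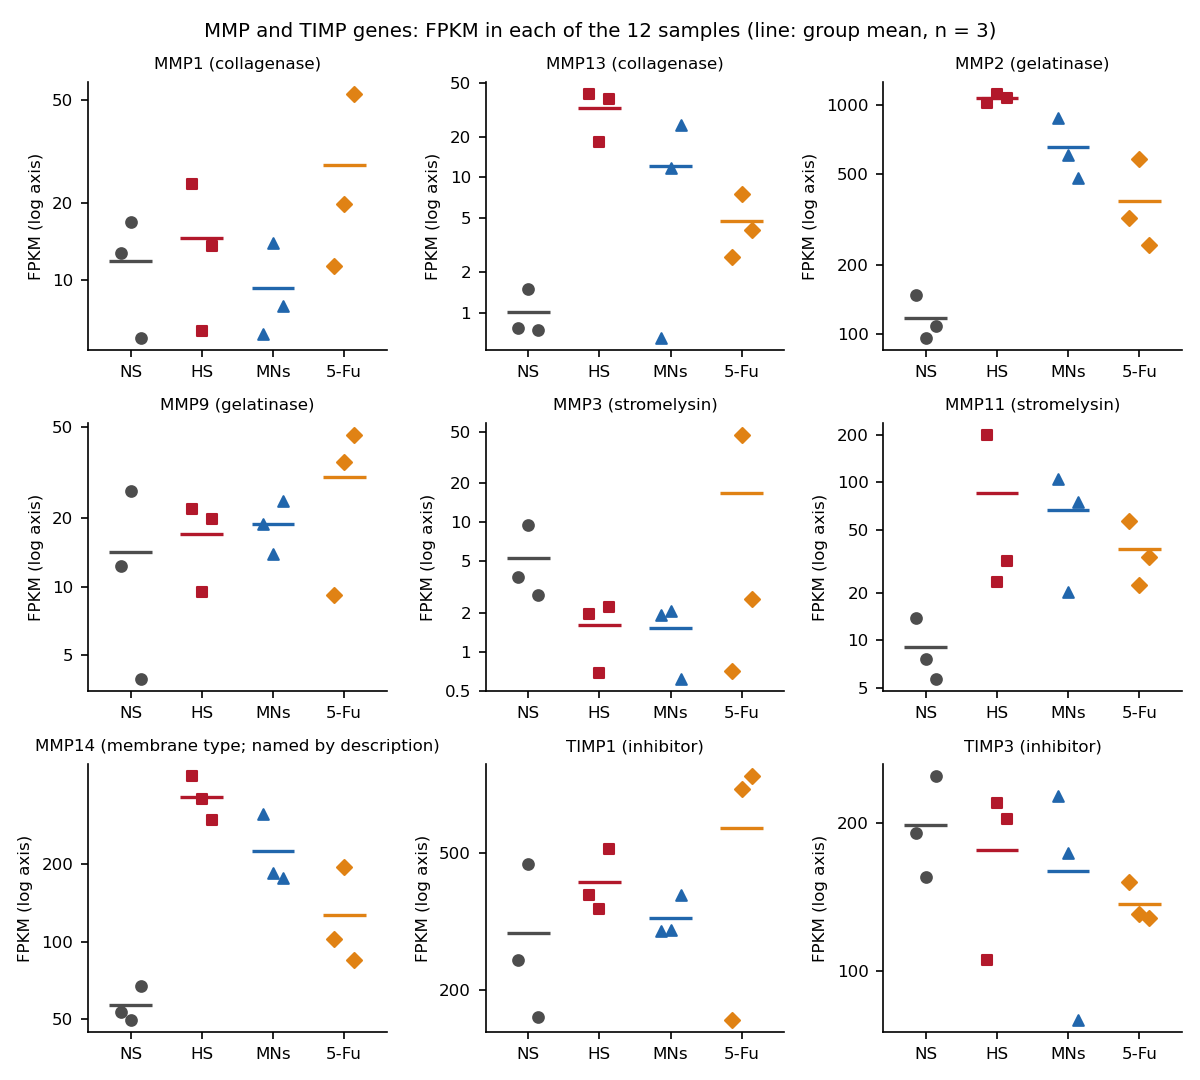
FPKM on a log axis in each of the 12 samples for the 8 members and for MMP14, which was named by its description; points are samples, lines are group means, and MNs stands for drug-loaded MNs and 5-Fu for 5-Fu injection. MMP2 and MMP14 were highest in all HS samples and lowest in all NS samples, apart from 1 drug-loaded MNs sample that lay within the HS range for MMP14, whereas the groups overlapped for MMP1, MMP9 and TIMP1.

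A gene was called when its adjusted p in limma (Benjamini-Hochberg over the 13287 tested genes) was under 0.05 and its log2 fold change of FPKM + 1 was above 1 in size. Between HS and NS, 2 of the 8 members were called higher and 0 lower, beside 3.53% of all tested genes called higher and 1.48% called lower. The HS and NS samples did not overlap for 4 of the 8 members, against 33.3% of all tested genes, so this share is not far from that of genes at large. Rescaling FPKM to total reads on genes moved the median of all tested genes from −0.01 to −0.33 and the calls over all genes from 469 higher and 196 lower to 311 higher and 749 lower. The 196 lower calls became 55 when NS replicate 1 was left out, and 74, 83 and 109 when HS replicate 1, 2 or 3 was. Between 5-Fu injection and HS, 1 of the 8 members was called lower and 0 higher, beside 1.78% of tested genes lower and 0.512% higher, and 2 members did not overlap, against 30.3% of tested genes. Calls over all genes in this comparison depended on single libraries: 68 higher and 236 lower became 0 and 0 without HS replicate 2, without HS replicate 3 or with only the groups compared, at most 8 and 8 without HS replicate 1 or 5-Fu injection replicate 1 or 3, and 303 and 500 without 5-Fu injection replicate 2. They were 125 and 160 after rescaling to total reads, 19 and 74 with no filter and 23 and 76 with the replicate block. The median log2 fold change of the 8 members was 0.55 between HS and NS and −0.04 between 5-Fu injection and HS, where the medians of all tested genes were −0.01 and 0.02.

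Between drug-loaded MNs and HS, limma called 0 of the 8 members and 1 gene in all, or 0.00753% of those tested. With only these groups in the fit, 32 genes were called higher and 5 lower, with 0 members among them. At an unadjusted p under 0.05 there were 2 members (MMP2 and MMP13), beside 8.9% of tested genes, and 1 member did not overlap, against 18.9%. Set against each other, the treated groups gave 0 members called by limma and 0 genes in all (0%), with 2 members (MMP1 and MMP2) at an unadjusted p under 0.05 beside 15.1% of tested genes, and 0 members without overlap against 17.1%. Without 5-Fu injection replicate 2, 10 genes were called higher and 2 lower. Both comparisons also gave 0 members with limma voom on the reads. Comparisons with HS share the HS samples, so their values are set side by side and not counted as separate evidence.

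**Figure D2:**
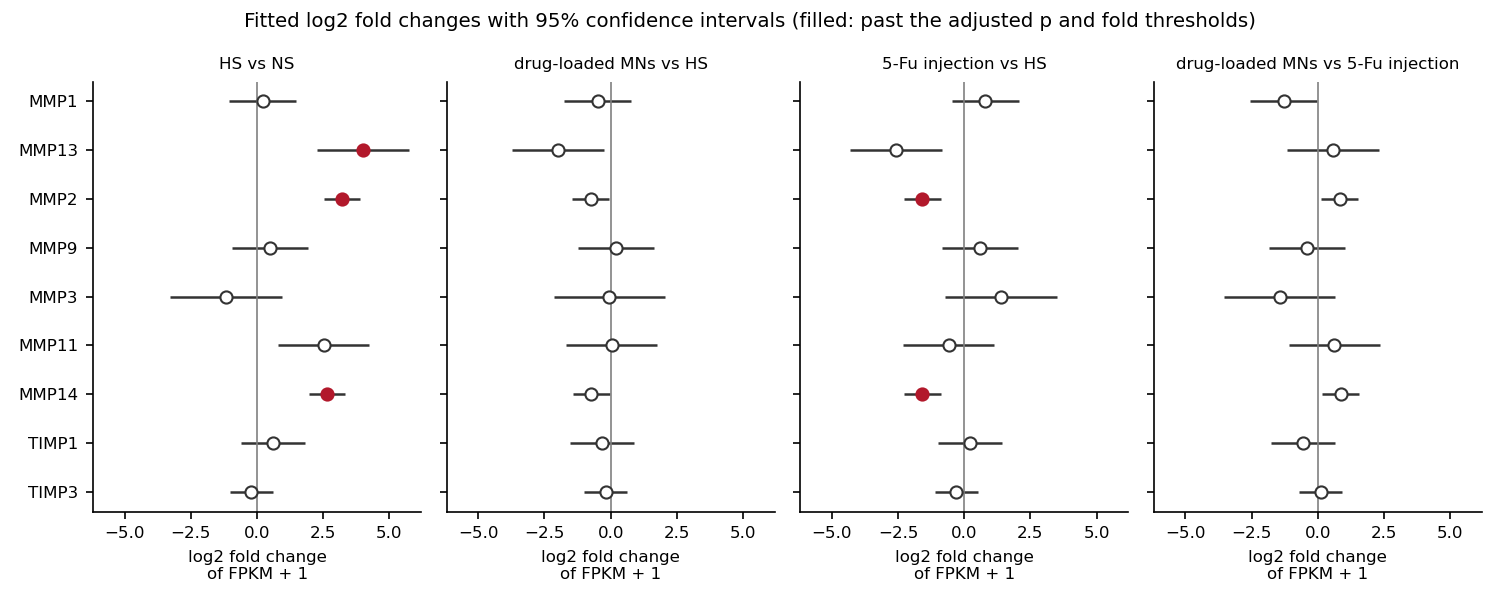
Fitted log2 fold change of FPKM + 1 (x axis) for each gene in 4 comparisons, with its 95% confidence interval as a line; filled points passed both thresholds. Intervals of MMP2 and MMP14 are the narrowest among the MMPs, and those of MMP3, MMP13 and MMP11 the widest.

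Of the collagenases, which make the initial cut in fibrillar collagen, MMP13 rose in HS. Its FPKM was 0.772, 1.49 and 0.745 in NS and 41.7, 18.5 and 38.1 in HS. It was 0.647, 11.8 and 24.3 with drug-loaded MNs and 2.59, 7.58 and 4.10 with 5-Fu injection. Every HS sample was thus above every NS and every 5-Fu injection sample, but the drug-loaded MNs samples were spread from the level of NS to inside the HS range. In HS against NS the log2 fold change was 4.01 ± 0.79 (SE, n = 3 per group; limma adjusted p = 0.0128). The call did not hold with HS replicate 1 left out (3.80, limma adjusted p = 0.0508) or with limma voom (4.99, adjusted p = 0.0534).

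For MMP13 between 5-Fu injection and HS the log2 fold change was −2.56 (95% CI −4.30 to −0.83), with a limma adjusted p of 0.0810. With drug-loaded MNs it was −1.97 against HS (95% CI −3.71 to −0.24; limma adjusted p = 0.511), and −0.82 without drug-loaded MNs replicate 1. Counting error was not small for this gene in the low samples, since the 3 NS samples held 27 to 60 reads of MMP13 and drug-loaded MNs replicate 1 held 24. Markers of cartilage on its way to bone varied by gene: the sum of 8 such markers was 168 to 506 FPKM in NS and 210 to 255 FPKM in HS, with BGLAP, osteocalcin, at 114 to 442 FPKM in NS and 70.9 to 81.9 FPKM in HS. ALPL, alkaline phosphatase, was at 1.52, 0.664 and 0.499 FPKM in NS and 13.4, 3.31 and 3.04 in HS, without overlap, and SP7 was also higher in each HS sample, at or below 0.346 FPKM. IBSP, a bone matrix protein, was at 87.1 FPKM in HS replicate 1 and at 0.317 and 2.86 FPKM in replicates 2 and 3, while SPP1, osteopontin, was at 16.0, 88.7 and 113 FPKM. Their part in the MMP13 values was not tested.

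MMP1, the interstitial collagenase, showed no group pattern. Its FPKM was 12.8, 16.8 and 5.96 in NS, 23.7, 6.38 and 13.6 in HS, 6.16, 13.9 and 7.94 with drug-loaded MNs, and 11.4, 19.8 and 53.1 with 5-Fu injection. All 4 groups overlapped, and the highest value was in 5-Fu injection replicate 3. Between HS and NS the log2 fold change was 0.21, with a 95% CI of −1.06 to 1.49. Its direction between these groups turned to −0.12 when FPKM were rescaled to the total of reads.

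Of the gelatinases, which cut denatured collagen and basement membrane, MMP2 carried most of the MMP transcripts. It made up 60.8% to 95.04% of the summed FPKM of the 6 MMP members in a sample. MMP2 FPKM was 148, 95.5 and 108 in NS, 1020, 1118 and 1074 in HS, 874, 601 and 481 with drug-loaded MNs, and 322, 579 and 245 with 5-Fu injection. HS samples were above all others and NS samples below all others, and only the groups on treatment overlapped each other. The HS samples were also the closest together of any member in any group, with a coefficient of variation of 4.60%, against 23.2% in NS, 30.9% with drug-loaded MNs and 45.9% with 5-Fu injection.

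The log2 fold change of MMP2 was 3.21 ± 0.31 between HS and NS (SE; limma adjusted p = 0.000748), and it was called in each of the alternatives run. Between 5-Fu injection and HS it was −1.58 ± 0.31 (limma adjusted p = 0.0280). That call rests on the full set of samples and on the settings. Leaving out any HS sample, or 5-Fu injection replicate 1 or 3, gave limma adjusted p of 0.0711 to 0.0999, while without 5-Fu injection replicate 2 it was 0.00461. With all samples kept, the call was lost with no filter (limma adjusted p = 0.0516), the replicate block (0.0502) and only the groups compared (0.0973). With drug-loaded MNs, the log2 fold change from HS was −0.76 (95% CI −1.44 to −0.07), with a limma adjusted p of 0.525 although all 3 treated samples were below all HS samples. Between the treated groups it was 0.82 (95% CI 0.14 to 1.51; limma adjusted p = 0.292). Against NS, MMP2 was still 2.45 log2 units higher with drug-loaded MNs (limma adjusted p = 0.0160, and 0.0895 without NS replicate 2) and 1.63 higher with 5-Fu injection, which did not pass (limma adjusted p = 0.103).

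MMP9, the gelatinase of leukocytes and wound-edge keratinocytes, did not follow MMP2. Its FPKM was 12.3, 26.4 and 3.92 in NS, 21.8, 9.51 and 19.7 in HS, 18.9, 13.9 and 23.7 with drug-loaded MNs, and 9.16, 35.3 and 46.4 with 5-Fu injection. All 4 groups overlapped, and the samples of NS alone differed 6.72-fold. The log2 fold change was 0.49 between HS and NS (95% CI −0.94 to 1.93; limma adjusted p = 0.694), and it was 0.19 between drug-loaded MNs and HS (95% CI −1.25 to 1.62; adjusted p = 0.958). By FPKM, MMP2 was 46.8 to 118 times MMP9 in HS and 3.62 to 27.5 times in NS.

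Of the stromelysins, MMP11 was higher in every scar sample than in every NS sample. Its FPKM was 13.8, 7.57 and 5.67 in NS, 201, 23.3 and 31.8 in HS, 106, 20.2 and 75.0 with drug-loaded MNs, and 56.8, 22.3 and 33.7 with 5-Fu injection. The scar groups overlapped one another, and the HS mean was set by replicate 1. For MMP11 in HS against NS the log2 fold change was 2.52 ± 0.78 (SE). That did not pass (limma adjusted p = 0.0771), but it passed with the replicate block (limma adjusted p = 0.0183). The log2 fold change was 1.58 without HS replicate 1. With drug-loaded MNs it was 0.03 against HS (95% CI −1.69 to 1.75).

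MMP3, which cuts proteoglycans and opens other proMMPs, was low in most samples. Its FPKM was 3.82, 9.47 and 2.75 in NS, 1.96, 0.687 and 2.23 in HS, 1.95, 2.07 and 0.620 with drug-loaded MNs, and 0.713, 47.2 and 2.58 with 5-Fu injection. The HS samples and the drug-loaded MNs samples were all below the NS samples, and the value of 47.2 in 5-Fu injection replicate 2 stood alone. None of the differences passed: the log2 fold change was −1.18 ± 0.96 between HS and NS (SE; limma adjusted p = 0.501) and 1.40 ± 0.96 between 5-Fu injection and HS (limma adjusted p = 0.379), the last of which was −0.03 without 5-Fu injection replicate 2.

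MMP14 was read from a row on chromosome 17 that the table classes as a pseudogene and that has no symbol, so it is reported as MMP14 by description only. Its FPKM was 53.7, 49.7 and 67.3 in NS, 440, 357 and 295 in HS, 313, 184 and 177 with drug-loaded MNs, and 103, 195 and 85.0 with 5-Fu injection. NS was below all scar samples, and HS was above all 5-Fu injection samples. The log2 fold change was 2.65 ± 0.31 between HS and NS (SE; limma adjusted p = 0.00130) and −1.58 ± 0.31 between 5-Fu injection and HS (limma adjusted p = 0.0282). The loss after 5-Fu injection was not called when any HS sample, or 5-Fu injection replicate 1 or 3, was left out (limma adjusted p of 0.0738 to 0.103), nor with no filter (0.0516), the replicate block (0.0537) or only the groups compared (0.0986).

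Between drug-loaded MNs and HS, MMP14 had a log2 fold change of −0.73 (95% CI −1.41 to −0.04; limma adjusted p = 0.536). MMP14 and MMP2 thus gave like values in these 3 comparisons, and MMP2 was 2.32 to 3.63 times MMP14 by FPKM in all scar samples and 1.601 to 2.75 times in NS. Against NS, MMP14 was 1.92 log2 units higher with drug-loaded MNs (limma adjusted p = 0.0232) and 1.07 higher with 5-Fu injection (limma adjusted p = 0.198). The call with drug-loaded MNs was lost when any sample of that group, or NS replicate 1 or 2, was left out and with the replicate block (limma adjusted p of 0.0556 to 0.0923).

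The inhibitors did not move with MMP2. TIMP1, a secreted inhibitor that also binds proMMP9, had FPKM of 245, 464 and 167 in NS, 377, 344 and 512 in HS, 298, 299 and 377 with drug-loaded MNs, and 164, 767 and 837 with 5-Fu injection. All groups overlapped, and both the lowest and the highest value of TIMP1 were in the 5-Fu injection group. From NS to HS the fitted change of TIMP1 was 0.60 log2 units (95% CI −0.61 to 1.81; limma adjusted p = 0.554) and 0.22 between 5-Fu injection and HS (95% CI −0.99 to 1.43; limma adjusted p = 0.828).

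TIMP3, which is held in the matrix and also blocks ADAM and ADAMTS proteases, had FPKM of 191, 155 and 249 in NS, 105, 220 and 204 in HS, 227, 174 and 79.4 with drug-loaded MNs, and 152, 130 and 128 with 5-Fu injection. The 5-Fu injection samples were the most alike (coefficient of variation 9.47%) and all lay below NS, while HS and drug-loaded MNs overlapped NS. From NS to HS the fitted change of TIMP3 was −0.21 log2 units (95% CI −1.04 to 0.61; limma adjusted p = 0.774) and −0.51 between 5-Fu injection and NS (95% CI −1.33 to 0.31; limma adjusted p = 0.524).

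The sum of the 6 MMP members over the sum of TIMP1 and TIMP3 was 0.332 ± 0.0951 in NS, 2.15 ± 0.537 in HS, 1.55 ± 0.317 with drug-loaded MNs and 0.822 ± 0.439 with 5-Fu injection (mean ± SD, n = 3). The samples ranged from 0.254 to 0.438 in NS and from 1.65 to 2.72 in HS, which did not overlap. Drug-loaded MNs samples (1.34 to 1.92) overlapped HS, and those of 5-Fu injection (0.398 to 1.28) overlapped NS but not HS. The numerator was mostly MMP2, with an MMP sum of 158 FPKM in NS and 1222 FPKM in HS, whereas the TIMP sum was 490 ± 112 FPKM in NS and 587 ± 119 FPKM in HS. With drug-loaded MNs the MMP sum was 761 ± 215 FPKM and the TIMP sum 485 ± 35.6 FPKM. With 5-Fu injection both sums varied. In replicates 1 to 3 the MMP sum was 402, 711 and 385 FPKM, the TIMP sum 315, 897 and 965 FPKM, and the ratio 1.28, 0.793 and 0.398. TIMP2 is missing from the sum, and since the ratio scores members chosen with earlier results known, it was not tested.

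**Figure D3:**
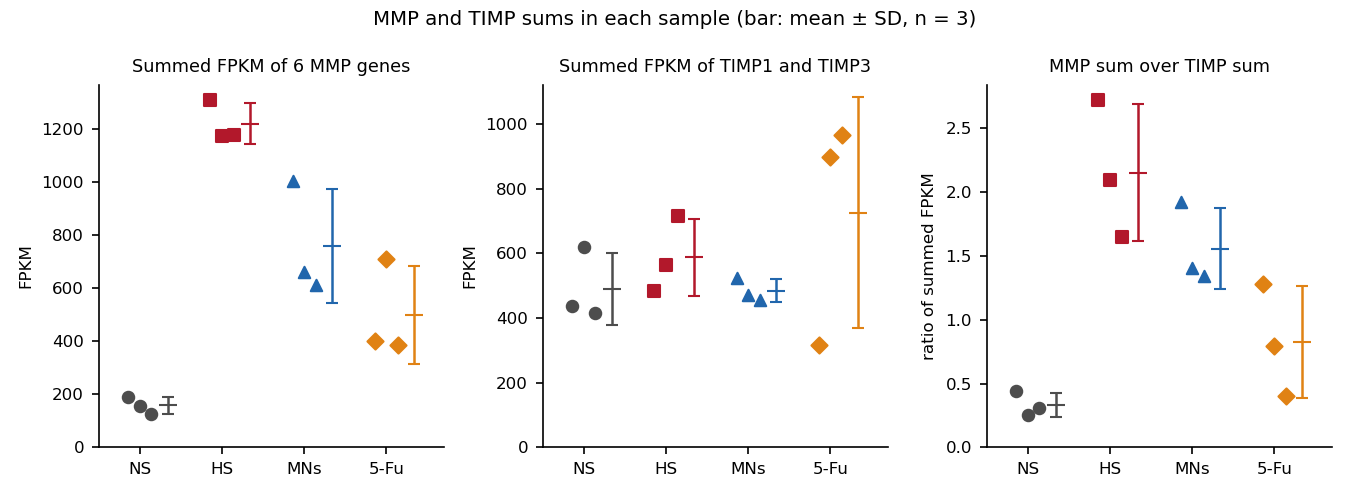
Summed FPKM of the 6 MMP members, summed FPKM of TIMP1 and TIMP3, and their ratio in each sample, with mean ± SD of the 3 samples of a group beside the points. The MMP sum orders the groups as NS, 5-Fu injection, drug-loaded MNs and HS by their means, and the TIMP sums of all groups overlap.

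Against NS, limma called 1 of the 8 members (MMP2) higher and 0 lower with drug-loaded MNs, beside 0.79% of tested genes higher and 0.0828% lower. These 105 and 11 genes became 0 and 0 without NS replicate 2, 6 and 0 without NS replicate 1, 84 and 29 without NS replicate 3, and 4 to 21 higher and 0 to 3 lower without a drug-loaded MNs sample. They were 66 and 20 after rescaling to total reads, 49 and 2 with no filter and 22 and 1 with the replicate block. The groups did not overlap for 3 of the members (MMP2, MMP11 and MMP3), against 20.6% of tested genes. With 5-Fu injection, limma called 0 members against NS and 1 gene in all (0.00753%; 17 higher and 3 lower without 5-Fu injection replicate 1, 9 and 7 without NS replicate 3), with 2 members (MMP2 and MMP11) at an unadjusted p under 0.05 beside 14.9% of tested genes, and 0 with limma voom. The groups did not overlap for 4 members (MMP2, MMP11, MMP13 and TIMP3), against 18.8% of tested genes.

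MMP2 and MMP14 were highest in the samples with most fibroblast transcripts. Over the 12 samples the log2 level of MMP2 had a Pearson r of 0.99 with the log2 sum of the 6 fibroblast markers (PDGFRB, LUM, DCN, DPT, THY1 and FAP), and 0.93 after the group means were taken out; for MMP14 these were 0.99 and 0.89. The values are descriptions, since samples of a group are alike in many genes and LUM, a collagen-binding proteoglycan, is a large share of the sum. All 6 markers had a fitted fold change above 0 between HS and NS, and LUM, DCN and FAP were called. The sum rose from 996 ± 165 FPKM in NS to 5644 ± 526 FPKM in HS, and was 3572 ± 769 FPKM with drug-loaded MNs and 2252 ± 1281 FPKM with 5-Fu injection (mean ± SD, n = 3).

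Relative to the fibroblast marker sum, MMP2 was 0.117 ± 0.0101 in NS and 0.191 ± 0.0216 in HS, a ratio of 1.64 between the groups, and MMP14 was 0.0579 ± 0.0106 and 0.0642 ± 0.00788, a ratio of 1.11. The ratio varied with the marker used: relative to DCN alone MMP2 was 3.01 times higher in HS than in NS, and relative to PDGFRB alone 4.54 times. For MMP14 these were 2.07 and 3.22 times, and relative to COL3A1 it was 0.410 times. Relative to COL3A1, a fibrillar collagen that MMPs cut, MMP2 was lower in HS, at 0.130 ± 0.00761 against 0.218 ± 0.0292 in NS. Set as 5-Fu injection over HS, the mean ratio of MMP2 to the marker sum was 0.921, to DCN 0.716 and to PDGFRB 0.460, while to COL3A1 it was 1.33. Set as drug-loaded MNs over HS, these were 0.943, 0.794, 0.724 and 1.04. The sum of the 5 keratinocyte markers ran the other way, with means of 3888 FPKM in NS, 1899 in HS, 6497 with drug-loaded MNs and 4867 with 5-Fu injection; all 5 were fitted below 0 between HS and NS and above 0 in both treatments against HS, with 1 called in the first and 0 in the others. The sum of the 9 macrophage markers was 160 ± 38.9 FPKM in NS, 294 ± 88.3 in HS, 188 ± 91.4 with drug-loaded MNs and 268 ± 147 with 5-Fu injection (mean ± SD, n = 3), and of the 8 tested 7 were fitted above 0 between HS and NS with 0 called. The part of fibroblast, keratinocyte or macrophage share in the MMP2 and MMP14 values was not tested.

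MMP9 and TIMP1 ran together inside the groups. With the group means taken out, their log2 levels had a Pearson r of 0.91 over the 12 samples, and TIMP1 was the third most alike gene to MMP9 among all tested genes with a symbol (r = 0.89 over the 12 samples). MMP9 over TIMP1 stayed between 0.0235 and 0.0634 in all 12 samples while MMP9 itself ranged from 3.92 to 46.4 FPKM. In NS, MMP1, MMP3, MMP9 and TIMP1 were all highest in replicate 2 and lowest in replicate 3. The neutrophil marker sum had the same order in NS (3552, 8731 and 60.5 FPKM in replicates 1 to 3), and with group means taken out it had r of 0.86 with MMP9 and 0.61 with TIMP1. These were the highest of the marker sums for both genes. On the same scale the macrophage sum had r of −0.55 with MMP9 and −0.41 with TIMP1, and the keratinocyte sum −0.29 and −0.50. The part of infiltrating or S100-expressing cells in these values was not tested.

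**Figure D4:**
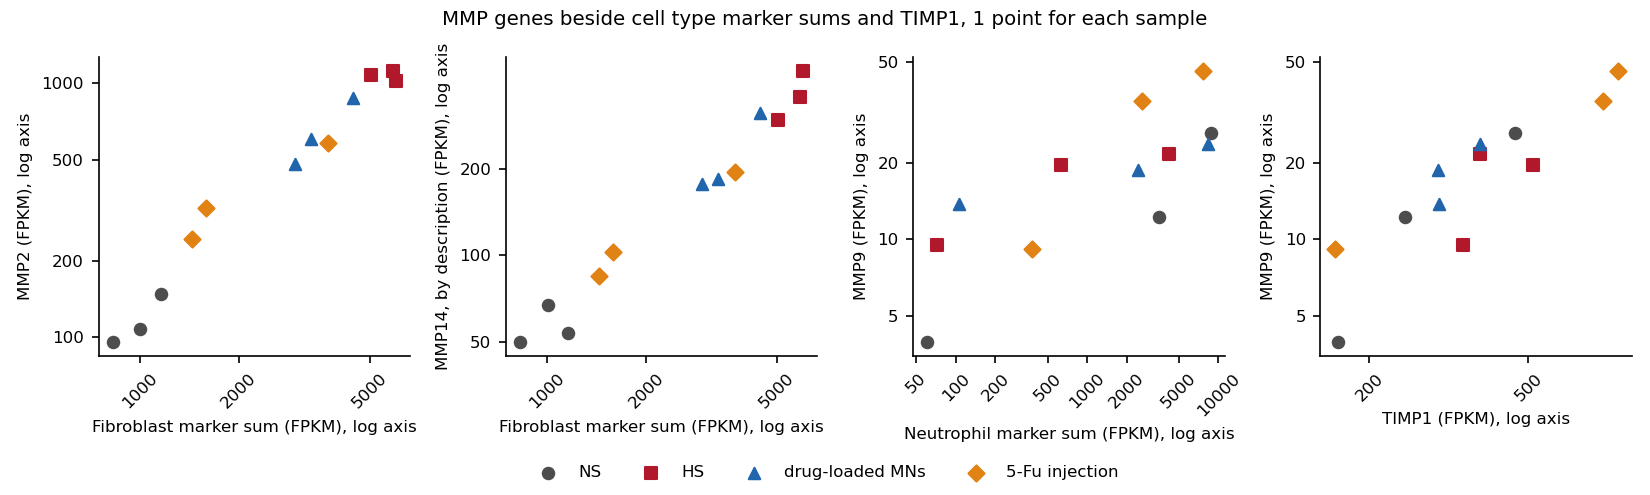
From left to right, MMP2 and MMP14 beside the summed FPKM of 6 fibroblast markers, MMP9 beside the summed FPKM of 6 neutrophil markers, and MMP9 beside TIMP1; each point is a sample, all axes are log axes in FPKM. MMP2 and MMP14 climb with the fibroblast sum from NS to HS with the treated scars between, whereas MMP9 spreads along the neutrophil sum and TIMP1 inside each group.

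The genes with the pattern most like a member over the 12 samples were, for MMP2, COL3A1 (Pearson r = 0.99), P4HA3, a collagen prolyl hydroxylase subunit (0.98), and TXNDC5, an endoplasmic reticulum disulfide isomerase (0.98). For MMP13 they were HDAC2, FGD1 and PGM2 (0.92 to 0.94), for MMP11 ERMP1, TTC37 and SPOCK1 (0.92 to 0.95), and for MMP9 RRM1, VAPB and TIMP1 (0.89 to 0.93). For MMP1 they were NUDT22, EXOSC3 and CNPY3 (0.88 to 0.90), and for MMP3 GUCA2A, SLC11A1 and RASGRP4 (0.86 to 0.94). For TIMP1 they were CLIC2, METAP2 and BUB3 (0.90 to 0.93). These are the 3 highest of all tested genes with a symbol, given as a description.

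MMP1, MMP3 and MMP13 lie in a run of 9 MMP genes on chromosome 1 (113615791 to 114012696 in the coordinates of the table, whose genome build is not given in the sources used here). MMP13 (113615791 to 113627810), MMP3 (113716113 to 113724650) and MMP1 (113747022 to 113756573) are all on the plus strand. The order is MMP13, MMP12, MMP3, MMP1, MMP10, MMP8, MMP27, MMP20 and MMP7. The highest sample differed between neighbours: it was HS replicate 1 for MMP13, 5-Fu injection replicate 1 for MMP12, replicate 2 of that group for MMP3 and replicate 3 for MMP1, and drug-loaded MNs replicate 1 for MMP27. MMP8 and MMP20 were listed at 0 in all samples, and MMP7 and MMP10 stayed at or below 0.462 FPKM. The other members are on chromosome 5 (MMP2, 11717140 to 11743377), chromosome 4 (TIMP3, 88310434 to 88361387, minus strand), chromosome X (TIMP1, 32653959 to 32658564) and unplaced scaffolds (MMP9 and MMP11).

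**Figure D5:**
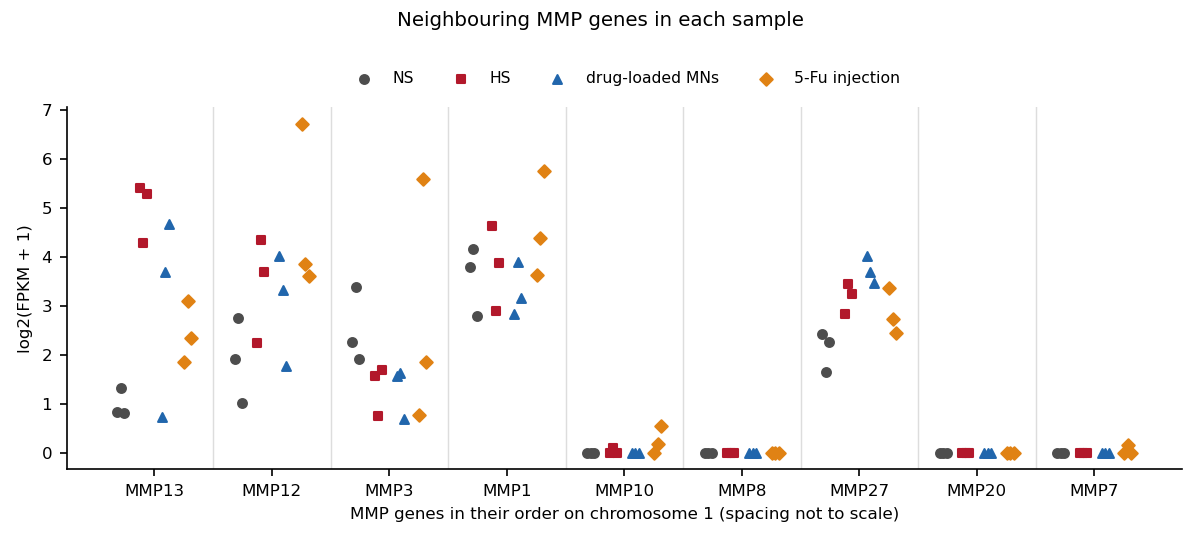
log2(FPKM + 1) in each of the 12 samples for the 9 neighbouring MMP genes in their order on chromosome 1, with groups side by side within a gene. MMP13 separates HS from NS, MMP12, MMP3 and MMP1 have their highest point in a different 5-Fu injection sample each, and MMP10, MMP8, MMP20 and MMP7 are at or near 0.

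Of 16 further MMP genes, 15 had a row and 7 were tested. Between HS and NS 3 of the 7 rose and 0 fell: MMP16, a membrane-type MMP, by 1.42 log2 units (limma adjusted p = 0.00588), MMP17, named by its description, by 1.62 (0.0427) and MMP27 by 1.06 (0.0452). The median log2 fold change of the 7 was 1.15, against −0.01 for all tested genes. Over all tested genes, 3.53% were called higher and 1.48% lower between HS and NS. Between 5-Fu injection and HS these shares were 0.512% and 1.78%. They stand beside the counts of this list and of each list below. The calls of MMP17 and MMP27 were lost whenever any NS or HS sample was left out. They were also lost with no filter, rescaling to total reads, the replicate block and only the groups compared, and that of MMP27 with limma voom. After 5-Fu injection MMP16 fell by 1.04 log2 units against HS (limma adjusted p = 0.0387). The call was lost when any HS sample or 5-Fu injection replicate 1 or 3 was left out. It was also lost with no filter, rescaling to total reads, the replicate block and only the groups compared. With drug-loaded MNs 0 of the 7 were called against HS, with 5 fitted below 0 and 2 above. MMP27 was at 12.4 ± 2.56 FPKM with drug-loaded MNs and 8.14 ± 1.90 FPKM in HS, without overlap (log2 fold change 0.56, limma adjusted p = 0.598). Against NS it was called higher with drug-loaded MNs (1.62, limma adjusted p = 0.0275). That call was lost when any drug-loaded MNs sample or NS replicate 1 or 2 was left out, with no filter and with the replicate block. MMP12, the macrophage metalloelastase, was at 104 FPKM in 5-Fu injection replicate 1 and at or below 19.2 FPKM elsewhere.

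Of 12 tested genes for other inhibitors and activators, 1 rose and 1 fell between HS and NS. CTSK, the collagen-cutting cathepsin K, rose by 1.65 log2 units (limma adjusted p = 0.0156, lost without NS replicate 1 or HS replicate 2). SERPINE2, an inhibitor of plasminogen activators, fell by 1.91 (limma adjusted p = 0.0385). That call was lost when any NS sample or HS replicate 1 or 2 was left out, and with no filter. CTSB, cathepsin B, was 0.92 log2 units higher (limma adjusted p = 0.0318), which is under the fold threshold. In both comparisons of a treatment with HS, 0 of the 12 were called. Of 12 ADAM and ADAMTS proteases, which TIMP3 can block, 4 rose and 0 fell in HS, beside 3.53% of tested genes higher and 1.48% lower. ADAM12 rose by 5.12 log2 units from 0.816 ± 0.665 to 61.0 ± 15.8 FPKM (limma adjusted p = 0.00130), and ADAMTS2, which trims procollagen, by 2.57 (0.00212). ADAMTS5 rose by 1.75 and ADAMTS12 by 1.65, the last of which was lost when any NS sample or HS replicate 2 or 3 was left out.

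After 5-Fu injection 3 of these 12 fell against HS and 0 rose, beside 1.78% of tested genes lower and 0.512% higher. Their log2 fold changes were −3.40 for ADAM12 (limma adjusted p = 0.0257), −1.49 for ADAMTS2 (0.0387) and −1.09 for ADAMTS5 (0.0438). With drug-loaded MNs 0 of the 12 were called, with 10 of 12 fitted below 0, a median log2 fold change of −0.26 and a median of −0.02 over all tested genes. These calls after 5-Fu injection were lost, as was that of MMP2, when any HS sample or 5-Fu injection replicate 1 or 3 was left out. With all samples kept, they were lost with the replicate block and only the groups compared. Those of ADAMTS2 and ADAMTS5 were also lost with no filter, and that of ADAMTS5 with quantiles made equal or rescaling to total reads.

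Among 11 tested inducers of MMP genes, 2 rose and 0 fell in HS: TGFB3 by 2.55 log2 units (limma adjusted p = 0.00339) and RUNX2, a transcription factor known to act on the MMP13 gene, by 1.56 (0.00520). As a list the inducers did not shift: 8 were fitted above 0 and 3 below, with a median of 0.05 against −0.01 for all tested genes. TGFB3 and RUNX2 fell after 5-Fu injection, with log2 fold changes of −1.59 (limma adjusted p = 0.0424) and −1.10 (0.0387). TGFB2 also fell (−1.63, limma adjusted p = 0.0387). These calls after 5-Fu injection were lost when any HS sample or 5-Fu injection replicate 1 or 3 was left out. With all samples kept, they were lost with no filter, the replicate block and only the groups compared. Those of TGFB3 and RUNX2 were also lost with rescaling to total reads, and that of RUNX2 with a pseudocount of 0.1. RUNX2 was at 1.97, 1.72 and 0.818 FPKM in NS, 7.29, 5.52 and 5.95 in HS, 4.64, 3.97 and 4.75 with drug-loaded MNs and 2.92, 3.11 and 1.38 with 5-Fu injection. FOS, part of the AP-1 factor, was at 13.4 ± 4.07 FPKM in NS and 7.21 ± 2.35 FPKM in HS, without overlap (log2 fold change −0.81, limma adjusted p = 0.394). With drug-loaded MNs FOS was at 24.6 ± 16.2 FPKM (log2 fold change against HS 1.497, limma adjusted p = 0.447). IL1B and TNF also had lower means in HS, at 0.777 and 0.330 FPKM against 6.08 and 2.32 FPKM in NS.

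Of 8 tested substrates, COL1A1, COL1A2 and COL3A1 rose in HS, by 4.34, 4.18 and 3.95 log2 units (limma adjusted p of 0.00109 to 0.00334), and 0 fell. COL1A1 and COL3A1 fell after 5-Fu injection, with log2 fold changes of −2.69 (limma adjusted p = 0.0421) and −1.93 (0.0387), and COL1A2 had −2.12, just short of the threshold (0.0510). The calls of COL1A1 and COL3A1 after 5-Fu injection were lost when any HS sample or 5-Fu injection replicate 1 or 3 was left out. They were also lost with no filter, the replicate block and only the groups compared. With drug-loaded MNs 0 of the 8 were called against HS, and the mean of COL1A1 was 7390 ± 1398 FPKM against 15711 ± 3134 in HS, without overlap of the samples. COL2A1, the collagen of cartilage and a substrate of MMP13, ranged from 247 to 3607 FPKM inside HS, and its level did not differ by the test between HS and NS (limma adjusted p = 0.757).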

How the data were processed

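Poly(A) mRNA from full thickness ear was sequenced by the authors, who deposited 1 table of FPKM for 12 samples. The aligner, counter and genome build are not given in the sources used here. Multiplied by gene length, 100% of the deposited FPKM values were whole multiples (within 0.02 reads) of a step per sample, which gave the reads on genes; the library size inside the FPKM was 0.873 to 1.20 times those reads, so values were already scaled between samples. Samples were grouped by their labels. A linear model of log2(FPKM + 1) over the 4 groups was fitted with limma 3.58.1 (R 4.3.3, empirical Bayes with trend) to 13287 genes (mean FPKM over the samples not under 1), with Benjamini-Hochberg adjustment in each of 6 comparisons. Fold changes on this scale understate those of low genes. The fit was tested on simulated data, with results that are not given here and support no statement above. The members and lists were chosen with earlier results of these data known. Every member is named. Of the lists, genes called in a comparison, or up to 4 of the highest mean FPKM, could be named, and others (markers of cell types and the chromosome 1 neighbours) were named after their values were seen. MMP14, MMP17, MMP19 and MMP25 were matched by description after the table had been seen. Alternatives were a pseudocount of 0.1, no filter, a minimum mean FPKM of 5, quantiles made equal, rescaling to total reads, limma voom on reads, only the groups compared, no trend, adjusted p alone, a replicate block and each sample left out. Sequences were not used here. The genes most like TIMP3 are not reported here.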

Additional observations from a re-analysis of the deposited data

How the results depend on the processing

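MMP2 and MMP14 were called higher in HS than in NS in each setting run. Between HS and NS the members called went from 2 to 1 with limma voom (MMP13 was lost), and ranged from 1 to 2 with a sample left out. Between 5-Fu injection and HS, 1 member (MMP2) was called, against 0 with no filter, 0 with only the groups compared and 0 with the replicate block (limma adjusted p = 0.0502), and 0 to 1 with a sample left out. Against NS the drug-loaded MNs group had 1, and 0 to 2 with a sample left out. Replicate numbers did not pair the samples (correlations of same-numbered deviations −0.27 to 0.44); the replicate block also moved MMP11 between HS and NS to a limma adjusted p of 0.0183. With MMP14 in the MMP sum, an alternative chosen after seeing the data, the ratio was 0.454 in NS, 2.80 in HS, 2.01 with drug-loaded MNs and 1.03 with 5-Fu injection. Values that changed sign were uncalled. Rescaling turned MMP1 between HS and NS to −0.12 and MMP3 between drug-loaded MNs and HS to 0.045; MMP3 between 5-Fu injection and NS became −0.017 with a pseudocount of 0.1 and −0.22 with limma voom. With a sample left out, log2 fold changes between HS and NS ranged from −0.21 to 0.67 for MMP1, −0.16 to 1.08 for MMP9 and −0.41 to 0.12 for TIMP3. Between drug-loaded MNs and HS they ranged from −0.55 to 0.98 for MMP11, −0.34 to 0.25 for MMP3, −0.16 to 0.40 for MMP9 and −0.53 to 0.24 for TIMP3. Between 5-Fu injection and HS they ranged from −1.18 to 0.35 for MMP11, −0.028 to 2.38 for MMP3 and −0.19 to 0.98 for TIMP1. Between the treatments they ranged from −0.23 to 1.74 for MMP13, −1.10 to 0.015 for MMP9 and −0.21 to 0.54 for TIMP3. Between drug-loaded MNs and NS they ranged from −0.67 to 0.0068 for MMP1, −0.065 to 0.67 for TIMP1 and −0.72 to 0.028 for TIMP3, and between 5-Fu injection and NS from −1.21 to 1.195 for MMP3. The cause was not tested. Of the values under alternatives for the members and MMP14, 807 kept direction and side of the threshold, 25 lost a call, 2 gained one and 30 changed sign. With 3 samples a group, and 12 to 60 reads of MMP3 or MMP13 in the lowest samples, intervals of these genes are wide.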
